A study of Homo sapiens with 18 samples.

Results

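A set of 10 genes of the NF-kB signalling pathway were followed through 18 Illumina bead arrays of KMS11 cells, and 8 of the 10 gave a signal that could be tested. The genes were the receptor CD40, the adaptor TRAF3 and the ubiquitin ligase BIRC3, the kinase MAP3K14, the subunits NFKB1, NFKB2, RELA and RELB, and the inhibitors NFKBIA and TNFAIP3. They were chosen by name, as all probes annotated to these symbols alone, with earlier results of these arrays known. Of the 48803 probes in the table, 12 belonged to 9 of the 10 genes. BIRC3 was not analysed here. The 2 CD40 probes and 1 of the 3 NFKB2 probes were detected on 0 of 18 arrays, with CD40 intensities between -6.8 and 6.9 at one probe and between -4.9 and 0.1 at the other. The 9 remaining probes stood for 8 genes among the 10954 features tested.

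KMS11 is a human multiple myeloma line with the t(4;14) translocation, which places the histone methyltransferase MMSET (gene symbol NSD2) under immunoglobulin enhancers. It has also been reported to have lost TRAF3. Each of the 6 groups held 3 arrays. In the knock-down system, cells carrying a doxycycline-inducible hairpin against the 5′ part of MMSET were left without doxycycline (no DOX) or given it (+DOX). In the repletion system, cells that the labels call knock-outs of MMSET were infected with an empty retroviral vector (DSRed), with wild-type MMSET II, or with MMSET II bearing the F1177A change, labelled active, or the Y1118A change, labelled inactive. The dose and time of doxycycline, and whether the knock-out or hairpin cells were clones, do not appear in the sources used here. The arrays of a group are called triplicates with no word on separate cultures, so every p-value below rests on the spread among arrays that may be technical repeats. In bulk RNA of this kind, fewer cells expressing a gene and less RNA per cell cannot be told apart.

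NF-kB dimers wait in the cytoplasm, held by IkB proteins or, for RELB, by the unprocessed NFKB2 precursor. In the canonical branch, IKK kinases mark NFKBIA for destruction and free dimers of RELA and NFKB1. In the non-canonical branch, TRAF3 and BIRC3 keep the kinase MAP3K14 (NIK) at a low level until a receptor such as CD40 is engaged, after which NFKB2 is processed and pairs with RELB. Loss of TRAF3, which leaves MAP3K14 protein to accumulate, is a known route to constant NF-kB activity in myeloma. NFKBIA and TNFAIP3 are both inhibitors and classical target genes of the pathway, so that they form feedback loops.

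The promoters of several of these genes carry the sequence that NF-kB dimers bind, and the 5 tested genes in which it was found are shown so that the matching letters can be seen. RefSeq promoters on GRCh38.p14, each 250 bases before to 50 after a transcription start, were in the table used for 8 of the 10 genes, and RELB and CD40 were not among them. A match to the kappa-B consensus on either strand was present in at least 1 promoter of 6 of these 8 genes (BIRC3, NFKB1, NFKB2, NFKBIA, TNFAIP3 and TRAF3), and in 13.3% of all 27305 gene symbols. Counted by promoter, 7 of the 12 of these genes held a match, against 11.3% of all 35116. MAP3K14 and RELA held no such letters in these windows. The 150 bases before one start of each gene are printed 5′ to 3′ on the gene's strand, with bases matching the kappa-B consensus in capitals, where overlapping matches make 1 run. They lie at chr14:35404750-35404899 (NFKBIA, minus strand), chr6:137867109-137867258 (TNFAIP3, plus), chr4:102501209-102501358 (NFKB1, plus), chr10:102394428-102394577 (NFKB2, plus) and chr14:102777299-102777448 (TRAF3, plus). A match in letters is a description of the sequence and does not show that a factor was bound in these cells.
NFKBIA: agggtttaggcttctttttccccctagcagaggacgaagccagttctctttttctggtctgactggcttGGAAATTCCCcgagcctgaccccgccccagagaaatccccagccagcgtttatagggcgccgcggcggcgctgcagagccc
TNFAIP3: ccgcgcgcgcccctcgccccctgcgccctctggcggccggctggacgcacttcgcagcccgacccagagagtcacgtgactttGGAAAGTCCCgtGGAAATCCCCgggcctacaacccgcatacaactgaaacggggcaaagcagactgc
NFKB1: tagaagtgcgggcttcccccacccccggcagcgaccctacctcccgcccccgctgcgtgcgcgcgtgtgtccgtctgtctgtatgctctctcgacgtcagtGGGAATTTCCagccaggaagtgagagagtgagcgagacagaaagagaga
NFKB2: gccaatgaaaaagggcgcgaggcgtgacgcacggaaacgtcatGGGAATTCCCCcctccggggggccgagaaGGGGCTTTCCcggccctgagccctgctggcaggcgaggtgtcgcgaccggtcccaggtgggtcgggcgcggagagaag
TRAF3: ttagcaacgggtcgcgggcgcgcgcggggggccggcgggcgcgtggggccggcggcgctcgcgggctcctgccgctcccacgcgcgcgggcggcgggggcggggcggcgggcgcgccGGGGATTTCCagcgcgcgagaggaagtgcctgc

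All levels below are log2 intensities after background correction and quantile normalisation, a difference is the first group's mean minus the second's, and a change was called where limma's p, adjusted by Benjamini-Hochberg over all 10954 features, was under 0.05. MMSET itself was checked first. Its probe read 6.47, 6.71 and 6.73 without doxycycline and 5.94, 5.999 and 5.87 with it, so NSD2 fell by 0.70 (SE 0.132, limma adjusted p = 0.000369). In the repletion cells NSD2 read 5.66, 5.68 and 5.63 on the DSRed arrays, 5.42, 5.68 and 5.79 for wild-type MMSET II, 5.93, 5.62 and 5.77 for F1177A and 5.55, 5.93 and 5.90 for Y1118A. These 4 groups overlapped and none differed from DSRed past the threshold (limma adjusted p from 0.464 to 0.887), so this probe does not check the repletion labels. Of 9 plasma cell markers 8 were detected and CD38 was not, whereas BCL6 was the only one of 4 earlier B cell markers detected, and markers of T and NK cells (0 of 5), myeloid cells (LYZ, 1 of 5) and stroma or endothelium (PECAM1, 1 of 5) were nearly absent. These markers moved with the groups as well. With doxycycline 3 of 8 plasma cell markers rose and 1 fell, MZB1 (-1.25), where 21.2% of all features rose and 20.1% fell. BCL6 rose by 1.59 from a group in which 1 of 3 arrays detected it. BCL6 was detected on no repletion array. Against DSRed 4 of 8 plasma cell markers were lower with each of MMSET II, F1177A and Y1118A, and 0, 0 and 1 were higher. Of all features 15.8%, 8.79% and 12.4% were called lower in these comparisons, and 17%, 11.7% and 15.3% higher. JCHAIN, which joins antibody units, had differences of -0.44, -1.10 and -1.12, and MZB1, a chaperone of antibody assembly, of -1.27, -0.51 and -0.98. SDC1 averaged 10.58 without doxycycline, 11.12 with it and 6.29 with DSRed. Its mean was 4.92 with MMSET II (detected on 0 of 3 arrays), 4.97 with F1177A (1 of 3) and 5.98 with Y1118A. SLAMF7 was detected on some hairpin arrays and on no repletion array. With DSRed against no DOX, 3 of 8 plasma cell markers were higher and 4 lower, where 32.7% of all features were higher and 27.4% lower. The log2 level of all 9 summed markers was 14.73 to 14.98 with DSRed, 14.37 to 14.54 with MMSET II, 14.51 to 14.53 with F1177A and 14.36 to 14.42 with Y1118A. Their part in the results below was not tested. The arrays differed in brightness, with 95th percentiles of intensity from 241.5 to 1033, the highest on DSRed replicate 3. The log2 brightness was 0.752 higher with +DOX than without, 1.05 higher with DSRed than no DOX, and 0.878 lower with F1177A than MMSET II. When arrays were scaled to equal medians over all probes in place of quantile normalisation, the median of all features moved to 0.486 for +DOX against no DOX, 0.212 for MMSET II against DSRed, -0.413 for F1177A against DSRed, 0.214 for Y1118A against DSRed, -0.618 for F1177A against Y1118A, -0.620 for F1177A against MMSET II and 0.742 for DSRed against no DOX. Most changes of the members under that scaling are therefore also given relative to these medians. Those of other genes are mostly given as fitted and include the shift of the median. The part of brightness in any result was not tested.

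TRAF3, the adaptor that brings MAP3K14 to its ubiquitin ligase, was dim, with intensities of 15.2 to 77.5, yet it was detected on 17 of 18 arrays. The sources used here do not say where its probe lies relative to the loss reported for KMS11. TRAF3 read 5.76, 5.98 and 5.93 without doxycycline and 5.19, 5.07 and 5.47 with it, where it was detected on 2 of 3 arrays. Every +DOX array lay below every other array of the series. TRAF3 fell by 0.65 with doxycycline (SE 0.157, limma adjusted p = 0.00282), a fall of 0.23 that was not called under median scaling over all probes (adjusted p = 0.246), or -0.713 relative to all features. In the repletion cells it read 6.50, 6.21 and 5.80 on the DSRed arrays, 6.03, 6.12 and 6.41 for wild-type MMSET II, 6.09, 6.34 and 6.21 for F1177A and 6.19, 6.11 and 6.11 for Y1118A. These groups overlapped, their means lay between 6.14 and 6.21, and no difference among them was called. Under median scaling over all probes TRAF3 was called lower with F1177A than with Y1118A (-0.49, adjusted p = 0.0138) and MMSET II (-0.55, adjusted p = 0.00754), where it was 0.124 and 0.0673 relative to all features.

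MAP3K14, the kinase that starts the non-canonical branch, had its lowest level in the same group as TRAF3. It read 6.27, 6.50 and 6.45 without doxycycline and 5.93, 5.88 and 5.97 with it, with no overlap. MAP3K14 fell by 0.48 (SE 0.126, limma adjusted p = 0.00547), but turned to 0.02 under median scaling over all probes, which is -0.470 relative to all features. In the repletion cells MAP3K14 read 6.83, 7.07 and 6.56 on the DSRed arrays, 6.46, 6.72 and 6.77 for wild-type MMSET II, 6.99, 7.19 and 7.11 for F1177A and 6.56, 6.54 and 6.69 for Y1118A. The F1177A arrays lay above all MMSET II and Y1118A arrays and overlapped DSRed. MAP3K14 was 0.45 higher with F1177A than with MMSET II (SE 0.126, limma adjusted p = 0.00936), and 0.50 higher than with Y1118A (adjusted p = 0.00537). Both directions turned under median scaling over all probes, to -0.21 and -0.19, or 0.408 and 0.426 relative to all features, and the first call was lost without MMSET II replicate 1 (0.35, adjusted p = 0.0659).

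NFKB1, the p105 precursor of the p50 subunit, separated MMSET II and Y1118A from F1177A. It read 9.94, 9.84 and 9.81 without doxycycline and 10.05, 10.14 and 10.06 with it, a gap with no overlap that did not pass the adjusted threshold (0.22, SE 0.0993, limma adjusted p = 0.0811) but did under median scaling over detected probes (0.33, adjusted p = 0.0209). With DSRed it read 10.39, 10.48 and 10.80, MMSET II arrays read 11.03, 10.95 and 10.94, those of F1177A 10.51, 10.32 and 10.47, and those of Y1118A 10.997, 10.75 and 10.90. All MMSET II arrays lay above all DSRed arrays, the Y1118A arrays overlapped both, and the F1177A arrays lay below MMSET II and Y1118A. NFKB1 was 0.41 higher with MMSET II than with DSRed (SE 0.0993, limma adjusted p = 0.00319), which was 0.67 and not called under median scaling over all probes (adjusted p = 0.123), or 0.458 relative to all features. It was 0.33 higher with Y1118A than with DSRed (limma adjusted p = 0.0198). That call was lost without DSRed replicate 1 (0.24, adjusted p = 0.123), DSRed replicate 2 (0.29, 0.0855), Y1118A replicate 1 (0.27, 0.0984) or Y1118A replicate 3 (0.32, 0.0646), without the detection filter (0.33, 0.0721), in a fit of the 2 groups alone (0.33, 0.0741), and under median scaling over all probes (0.58, 0.207). NFKB1 was 0.54 lower with F1177A than with MMSET II (limma adjusted p = 0.000371) and 0.45 lower than with Y1118A (adjusted p = 0.00207).

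NFKB2, the p100 protein that holds RELB until it is cut to p52, had 2 detected probes that differed in what they showed. The brighter one, used in the tests, read 8.31, 8.14 and 8.60 without doxycycline, 8.27, 8.17 and 8.19 with it, 8.36, 8.28 and 8.40 on the DSRed arrays, 8.50, 8.37 and 8.56 for wild-type MMSET II, 8.26, 8.42 and 8.56 for F1177A and 8.51, 8.42 and 8.74 for Y1118A. Its groups overlapped in most pairs and it was called in no comparison, though under median scaling over all probes it was called lower with F1177A than with Y1118A (-0.93) and MMSET II (-0.83) and higher with DSRed than without doxycycline (0.92). The other probe read 7.45, 6.91 and 7.66 without doxycycline and 7.17, 7.06 and 7.26 with it. Its repletion values were 7.89, 7.86 and 7.81 on the DSRed arrays, 8.11, 8.06 and 8.35 for wild-type MMSET II, 7.90, 7.94 and 8.20 for F1177A and 8.29, 8.23 and 8.38 for Y1118A, so that all repletion arrays lay above the hairpin arrays and DSRed lay lowest among them. In a limma fit over all 13336 detected probes, this NFKB2 probe was 0.45 higher with Y1118A than with DSRed (SE 0.146, adjusted p = 0.0278) and 0.51 higher with DSRed than without doxycycline (adjusted p = 0.00509), while its difference of 0.32 between MMSET II and DSRed was not called (adjusted p = 0.103). Which transcripts of NFKB2 the probes tell apart was not tested.

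RELA, the p65 subunit that carries the activation domain of the canonical dimer, was lowest with Y1118A. It read 7.34, 7.36 and 7.39 without doxycycline and 6.95, 7.20 and 7.52 with it, and these groups overlapped. In the repletion cells RELA read 7.50, 7.59 and 7.32 on the DSRed arrays, 6.90, 7.22 and 7.10 for wild-type MMSET II, 7.25, 7.59 and 7.32 for F1177A and 6.73, 7.05 and 6.79 for Y1118A. Y1118A and MMSET II lay below every DSRed array and every F1177A array and overlapped each other. RELA fell by 0.61 with Y1118A against DSRed (SE 0.141, limma adjusted p = 0.0032), which was -0.36 and not called under median scaling over all probes (adjusted p = 0.295), or -0.575 relative to all features. It fell by 0.40 with MMSET II (limma adjusted p = 0.0353). The second call was lost without replicate 1 (-0.38, adjusted p = 0.0915) or 2 (-0.34, 0.132) of DSRed, without replicate 1 (-0.31, 0.159) or 3 (-0.41, 0.0662) of MMSET II, without the detection filter (-0.40, 0.115), and under median scaling over all probes (-0.18, 0.604). RELA was 0.53 higher with F1177A than with Y1118A (limma adjusted p = 0.00713), which turned to -0.19 under median scaling over all probes, or 0.428 relative to all features.

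RELB, the partner of processed NFKB2, had its lowest repletion means with Y1118A and MMSET II, as RELA did, and its highest with F1177A. It read 8.74, 9.14 and 9.11 without doxycycline, 8.91, 9.01 and 9.31 with it, 9.09, 8.95 and 8.66 on the DSRed arrays, 8.69, 8.62 and 8.86 for wild-type MMSET II, 9.18, 9.24 and 9.32 for F1177A and 8.61, 8.66 and 8.65 for Y1118A. The F1177A arrays lay above every other repletion array. RELB was 0.60 higher with F1177A than with Y1118A (SE 0.128, limma adjusted p = 0.00152) and 0.52 higher than with MMSET II (adjusted p = 0.00364), and both turned under median scaling over all probes, to -0.19 and -0.25, or 0.430 and 0.373 relative to all features. Against DSRed its rise of 0.34 with F1177A missed the adjusted threshold (limma adjusted p = 0.0638).

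NFKBIA, the IkB-alpha protein that holds RELA in the cytoplasm, had the widest spread of group means of the 8 genes, 1.19. It read 9.34, 9.50 and 9.46 without doxycycline and 10.06, 9.97 and 10.09 with it, and the +DOX arrays were the highest of the series. NFKBIA rose by 0.61 with doxycycline (SE 0.0809, limma adjusted p = 1.11e-05), or 1.52-fold, and the rise was 1.29 under median scaling over all probes, 0.802 relative to all features. In the repletion cells it read 8.85, 8.96 and 8.85 on the DSRed arrays, 9.27, 9.23 and 9.36 for wild-type MMSET II, 8.80, 8.86 and 8.90 for F1177A and 8.99, 8.92 and 8.92 for Y1118A. Wild-type MMSET II alone stood clear of the other 3 repletion groups, which overlapped except that every F1177A array lay below every Y1118A array. With MMSET II, NFKBIA was 0.40 higher than with DSRed (limma adjusted p = 0.000815), 0.34 higher than with Y1118A (adjusted p = 0.00546) and 0.43 above F1177A, a difference of -0.43 for F1177A minus MMSET II (adjusted p = 0.000413). Under median scaling over all probes the first 2 were 0.67 and 0.34 and not called (adjusted p = 0.0705 and 0.627), or 0.453 and 0.338 relative to all features, and the third was -1.22 and still called.

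TNFAIP3, the A20 enzyme that edits ubiquitin chains and ends the signal, split the 2 systems. It read 8.15, 8.46 and 8.41 without doxycycline and 8.64, 8.71 and 8.71 with it, with no overlap. TNFAIP3 rose by 0.35 (SE 0.107, limma adjusted p = 0.0143), a call that was lost without no DOX replicate 1 (0.25, adjusted p = 0.0554), without the detection filter (0.35, 0.0668), with array weights (0.28, 0.0645) and in a fit of these 2 groups alone (0.35, 0.0693). In the repletion cells it read 9.40, 9.22 and 9.16 on the DSRed arrays, 9.21, 9.35 and 9.33 for wild-type MMSET II, 9.36, 9.56 and 9.25 for F1177A and 9.26, 9.45 and 9.19 for Y1118A. All 12 repletion arrays lay above all 6 hairpin arrays, while the 4 repletion groups overlapped and no difference among them was called. TNFAIP3 was called lower with F1177A than with Y1118A and MMSET II under median scaling over all probes (-0.69 in both, or -0.0684 and -0.0664 relative to all features).

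**Figure D1:**
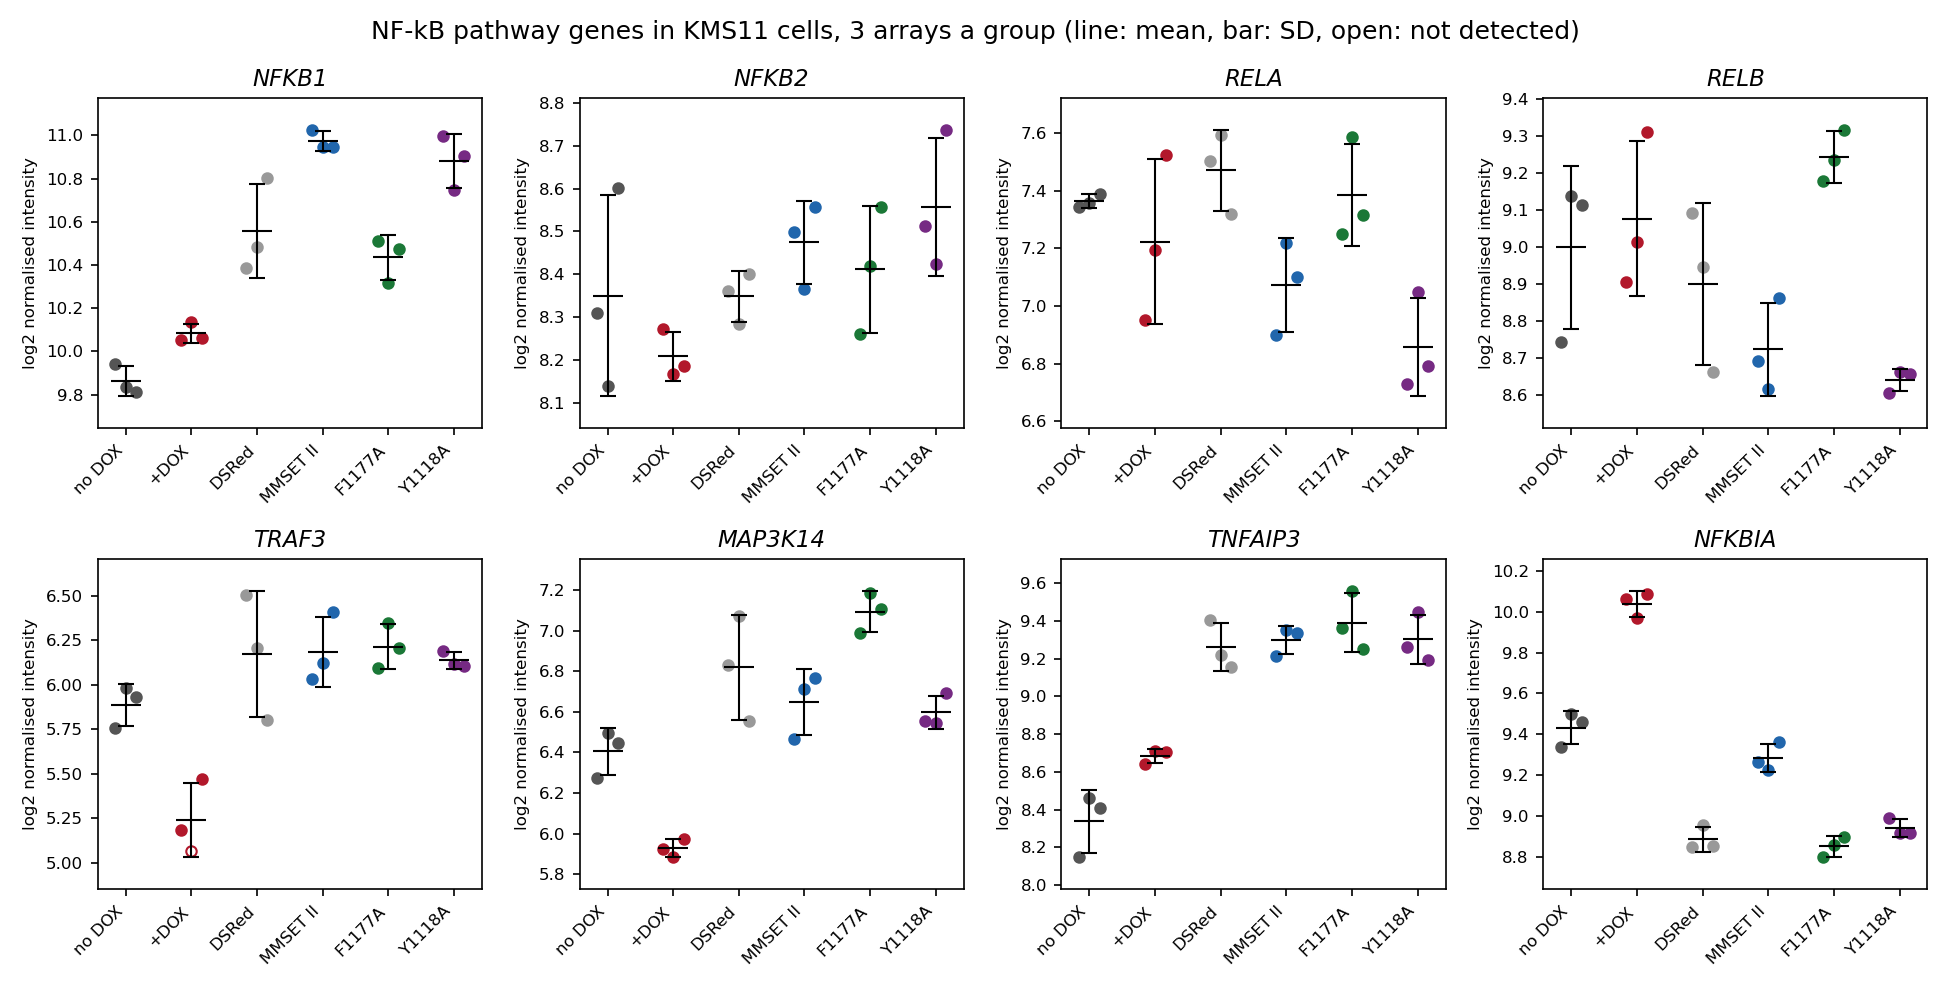
Log2 normalised intensity (vertical axis) of the 8 tested NF-kB genes on each array of the 6 groups (horizontal axis), with points for arrays, black lines for means and bars for SD (n = 3); an open point marks an array without detection. TRAF3 and MAP3K14 were lowest with +DOX while NFKBIA was highest there, and TNFAIP3 was higher on all 12 repletion arrays than on the 6 hairpin arrays.

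With doxycycline, which switches on the MMSET hairpin, RNA of NFKBIA and TNFAIP3 was higher and that of TRAF3 and MAP3K14 lower. CD40 and BIRC3, also upstream in the non-canonical branch, were not tested. No group is labelled as given doxycycline without this hairpin, so the drug and the hairpin cannot be told apart. Of the 8 tested members 4 were called: NFKBIA (0.61) and TNFAIP3 (0.35) rose, and TRAF3 and MAP3K14 fell, by 0.65 and 0.48. The share was not far from the 41.3% of all 10954 features called (21.2% higher, 20.1% lower). The arrays of 5 members did not overlap, against 44.2% of features. No subunit was called. Under median scaling over all probes NFKBIA and TNFAIP3 were still called, TRAF3 was not and MAP3K14 turned, while the subunits NFKB1 (0.89, adjusted p = 0.0169, or 0.405 relative to all features) and RELB (0.76, adjusted p = 0.00914, or 0.274) were called, and 95.9% of all calls were then higher, against 51.3%.

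The wider pathway was read from 9 lists of 98 genes, of which 57 were tested. With doxycycline 26 of these (45.6%) were called, against 41.3% of all features (21.2% higher, 20.1% lower). All 9 lists were written with earlier results of these arrays in view. Of 5 tested IkB genes 4 rose and 0 fell, with a median of 0.61 where that of all features was 0.0112. Beside NFKBIA they were NFKBIZ (1.00, limma adjusted p = 4.33e-05) and NFKBIE (0.67, adjusted p = 6.53e-05), a nuclear and a cytoplasmic member of the family, and BCL3 (0.35, adjusted p = 0.028). NFKBIE read 6.64, 6.61 and 6.66 without and 7.24, 7.27 and 7.39 with doxycycline, and NFKBIZ read 5.57, 5.63 and 5.28 without, where 2 of 3 arrays detected it, and 6.51, 6.63 and 6.35 with it. In both genes the groups stood apart. The 2 detected ligand genes rose as well. LTB, a lymphotoxin subunit, went from 12.06, 12.93 and 12.93 to 13.51, 13.78 and 13.72 (1.03, adjusted p = 0.00017), and LTA rose by 0.59 (adjusted p = 0.00301). The receptor that LTB engages, LTBR, was not among the 4 receptors tested.

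The counts of the other lists stand beside 21.2% of all features called higher and 20.1% lower with doxycycline. Among the 11 tested adaptors and ubiquitin ligases 4 rose and 4 fell with doxycycline, against 5 and 0 under median scaling over all probes. The paracaspase MALT1 rose by 1.21 (limma adjusted p = 1.86e-06), the ligase BIRC2, a relative of BIRC3, by 1.00 (adjusted p = 0.000207), and TRAF6 was at least 1.13-fold higher. TRADD, which links the TNF receptor to the kinase RIPK1, fell by 0.94, and RBCK1, part of the linear ubiquitin ligase, fell by 0.91. Neither was called under that scaling (-0.29 and -0.27), where the median of all features was 0.486. Of the 8 kinases CHUK (IKK-alpha) rose by 0.42, a call lost without no DOX replicate 3 (0.33, adjusted p = 0.0691) or +DOX replicate 1 (0.28, 0.0961), and MAP3K14 fell, against 5 higher and 0 lower under that scaling. Of 10 brakes on the pathway 3 rose and 1 fell, against 8 and 0. Of 4 receptors 2 rose and 1 fell, against 3 and 0, and each call rested on single arrays. TNFRSF13B (TACI), which rose by 0.44, was not called without no DOX replicate 1 (0.17), +DOX replicate 1 (0.44) or +DOX replicate 2 (0.40). TNFRSF17 (BCMA), which rose by 0.27, was not called without no DOX replicate 2 (0.25), no DOX replicate 3 (0.18) or +DOX replicate 1 (0.26). TNFRSF1B, which fell by 0.70, was detected on 2 of 3 arrays without doxycycline and 1 of 3 with it. Its fall was not called without no DOX replicate 2 (-0.40), no DOX replicate 3 (-0.56) or +DOX replicate 3 (-0.56). Of 9 general NF-kB targets 1 rose, the survival gene BCL2L1 (0.82), and 2 fell, the chemokine CCL5 (-0.69, not called at -0.06 under median scaling over all probes) and IRF1 (-0.56, which turned to 0.11).

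The group given wild-type MMSET II had more NFKB1 and NFKBIA and less RELA than DSRed. These 3 of 8 members were called against DSRed (0.41, 0.40 and -0.40), where 32.8% of all features were called (17% higher, 15.8% lower), and the same 3 did not overlap, against 44.3% of features. The RELA call was lost without single arrays, and NSD2 itself did not differ past the threshold (-0.03, limma adjusted p = 0.887). Under median scaling over all probes 0 of 8 were called and 84.8% of all calls were higher, against 51.9%. In the wider lists 23 of 57 genes (40.4%) were called.

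The IkB family was higher with MMSET II as well. Of 5 tested genes 4 rose and 0 fell, where 17% of all features rose and 15.8% fell. Their median was 0.48 against 0.00224 for all features, and 3 of the 5 were called under median scaling over all probes. BCL3, a nuclear family member that works with p50 and p52, read 7.67, 7.70 and 7.78 with DSRed and 8.55, 8.43 and 8.40 with MMSET II (0.75, limma adjusted p = 9.93e-05). NFKBIE rose by 0.48 (adjusted p = 0.00146), and NFKBIZ, detected on 0 of 3 DSRed arrays, was at least 1.17-fold higher. A bound of this kind divides the brighter group's level by that of the dimmer one, in which each array counts at its own signal or, if larger, at the lowest signal that was detected there, averaged on the log2 scale. NFKBIB, IkB-beta, was the exception, with 6.67, 6.66 and 7.02 beside 6.85, 6.91 and 6.72 with DSRed. The means of BCL3 and NFKBIZ were 8.46 and 5.60 with MMSET II and 8.46 and 5.59 with Y1118A, labelled inactive. NFKBIA and NFKBIE were called higher with MMSET II than with Y1118A (0.34 and 0.36).

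Target genes went both ways with MMSET II, and so did the brakes, where 17% of all features were called higher and 15.8% lower. Of 9 general targets 4 rose and 2 fell, against 3 and 0 under median scaling over all probes. Among them were MMP9, a matrix protease not detected with DSRed (at least 1.45-fold higher), GADD45B, a stress-response gene (1.03, limma adjusted p = 1.9e-06), and CD83 (0.42), which 2 of 3 DSRed arrays detected, while IRF1 and the caspase inhibitor CFLAR fell by 0.66 and 0.41. CD83 lost its call without DSRed replicate 1 (0.40) or 2 (0.41) or without MMSET II replicate 1 (0.44), 2 (0.44) or 3 (0.39), and CFLAR without DSRed replicate 2 (-0.35) or MMSET II replicate 2 (-0.35). Of 10 brakes 5 fell and 1 rose, and under median scaling over all probes 0 fell and 1 rose. TNIP1 and TAX1BP1, partners of TNFAIP3, fell by 0.55 and 0.53, NKIRAS1, which slows IkB breakdown, fell by 0.85, and COMMD1, which speeds RELA removal, rose by 0.70. Of 8 kinases 1 fell, TAB1, a partner of the kinase TAK1 (-0.59, not called at -0.37 under median scaling over all probes), and of 11 adaptors 2 rose, among them IRAK1 (0.43, limma adjusted p = 0.00281), the kinase of the interleukin-1 and Toll-like receptors. From a set of NF-kB-dependent genes reported in myeloma, WNT10A was at least 1.85-fold higher and PLEK fell by 0.95.

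F1177A, labelled active, gave no called member against DSRed. The count was 0 of 8 in limma at the adjusted threshold, beside 20.5% of all features (11.7% higher, 8.79% lower). At an unadjusted limma p under 0.05 it was 2, RELB (0.34) and MAP3K14 (0.27). RELB was the 1 member without overlap, against 37.6% of features. In the wider lists 9 of 57 genes (15.8%) were called. LTB read 5.65, 5.56 and 5.22 with DSRed, detected on 2 of 3 arrays, and 6.70, 6.68 and 6.54 with F1177A (1.16, limma adjusted p = 0.000109). Of the IkB family BCL3 rose by 0.47, which turned to -0.05 under median scaling over all probes (0.363 relative to all features), and NFKBIB fell by 0.52. GADD45B and SOD2, a mitochondrial superoxide scavenger, rose by 0.43 and 0.49. Under median scaling over all probes SOD2 turned to -0.04, where the median of all features was -0.413. GADD45B was not called without F1177A replicate 2 (0.39, adjusted p = 0.0656). Of all calls 18% were higher under that scaling, against 57.2%.

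Y1118A, labelled inactive, came with less RELA (-0.61) and more NFKB1 (0.33) than DSRed, 2 of 8 members where 27.7% of all features were called (15.3% higher, 12.4% lower). The NFKB1 arrays overlapped those of DSRed, and its call was lost without single arrays. Under median scaling over all probes no member was called. In all 3 members did not overlap (RELA, RELB and NFKB2), against 43.9% of features. Of the wider lists 17 of 57 genes (29.8%) were called, and 88.2% of all calls were higher under median scaling over all probes, against 55.3%. TNFRSF17 read 12.28, 12.15 and 12.19 with DSRed and 11.46, 11.44 and 11.58 with Y1118A, a fall of 0.71 (limma adjusted p = 1.13e-05), the 1 of 4 receptors called, and 0 under median scaling over all probes (-0.52, adjusted p = 0.159). BCL3 rose by 0.75 (adjusted p = 0.000186) and NFKBIZ was at least 1.17-fold higher, the 2 of 5 IkB genes called. CD83, a surface protein of activated B cells, rose by 0.77, COMMD1 by 0.82, and IRF1 and TNIP1 fell by 0.57 and 0.48, though neither was called under that scaling (-0.30 and -0.23). IRF1 was not called without DSRed replicate 1 (-0.40, adjusted p = 0.0702). The comparisons of MMSET II, F1177A and Y1118A with DSRed share the DSRed arrays, so likenesses among them are not independent.

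Set against each other, MMSET II and Y1118A differed in 1 of 8 members, NFKBIA (0.34), where 18.5% of all features were called (9.16% higher, 9.33% lower), and 1 member did not overlap, against 48.2% of features. For the other 7 the differences lay between -0.08 and 0.22 with SE of 0.0993 to 0.157, which does not show that the constructs act alike on them. In the wider lists 12 of 57 genes (21.1%) were called. TNFRSF17 was 0.75 higher with MMSET II (limma adjusted p = 5.46e-06), GADD45B 0.63 higher, WNT10A, which 1 of 3 Y1118A arrays detected, 1.16 higher, IRAK1 0.59 higher, and MMP9 at least 1.61-fold higher. NFKBIE was 0.36 higher, a call lost without MMSET II replicate 1 (0.36, adjusted p = 0.055), MMSET II replicate 2 (0.34, 0.0763), Y1118A replicate 1 (0.36, 0.0599) or Y1118A replicate 3 (0.33, 0.0869). NKIRAS1 and PLEK were lower, with differences of -0.83 and -0.51. Of these, TNFRSF17 (0.77, adjusted p = 0.0534), GADD45B (0.61), IRAK1 (0.59), NFKBIE (0.34), NKIRAS1 (-0.89) and PLEK (-0.54) were not called under median scaling over all probes. Under median scaling over all probes 67.9% of all calls were higher, against 49.5%.

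F1177A differed from Y1118A in 4 of 8 members, where 36.7% of all features were called (17.8% higher, 18.9% lower). RELB (0.60), RELA (0.53) and MAP3K14 (0.50) were higher with F1177A and NFKB1 lower (-0.45). The first 3 turned under median scaling over all probes, to -0.19 each, while NFKB1 stayed lower. TRAF3, NFKB2, TNFAIP3 and NFKBIA were called lower there as well, with NFKBIA at -0.88, or -0.267 relative to all features. In all 5 members did not overlap, against 61.3% of features. Of all calls 3.91% were higher under that scaling, against 48.5%. Of the wider lists 22 of 57 genes (38.6%) were called, among them LTB (1.42, detected on 1 of 3 Y1118A arrays) and TNFRSF17 (0.72) higher and COMMD1 (-0.95), CD83 (-1.04, detected on 2 of 3 F1177A arrays) and MALT1 (-0.68) lower. TNFRSF17 was not called under median scaling over all probes (0.10), and TNIP1 (0.43) and IRF1 (0.64), both called higher, turned to -0.35 and -0.14. The median of all features was -0.618 there. Of 5 IkB genes 0 were higher and 3 lower, NFKBIZ (-0.43), NFKBIE (-0.41) and NFKBIB (-0.33). NFKBIZ was not called without F1177A replicate 2 (-0.27) or Y1118A replicate 1 (-0.37), 2 (-0.44) or 3 (-0.47), and NFKBIB not without F1177A replicate 1 (-0.35), 2 (-0.38) or 3 (-0.27) or Y1118A replicate 2 (-0.29) or 3 (-0.29).

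F1177A also differed from wild-type MMSET II in 4 of 8 members, where 38.8% of all features were called (19.1% higher, 19.7% lower). RELB (0.52) and MAP3K14 (0.45) were higher and NFKB1 (-0.54) and NFKBIA (-0.43) lower, and the 2 that were higher turned under median scaling over all probes, to -0.25 and -0.21, while TRAF3, NFKB2 and TNFAIP3 were then called lower. In all 5 members did not overlap, against 58% of features, and under that scaling 2.63% of all calls were higher, against 49.2%. Of the wider lists 26 of 57 genes (45.6%) were called. The IkB family was lower in 4 of 5 genes and higher in 0, with a median of -0.43 against -0.0117 for all features. NFKBIE led with -0.77 (limma adjusted p = 1.94e-05), from 7.40, 7.45 and 7.38 with MMSET II to 6.68, 6.43 and 6.83 with F1177A, and NFKBIB (-0.47) and NFKBIZ (-0.43) followed. NFKBIZ lost its call without F1177A replicate 2 (-0.28, adjusted p = 0.186), MMSET II replicate 1 (-0.38, 0.11) or MMSET II replicate 2 (-0.41, 0.0852). WNT10A was at least 1.95-fold and MMP9 at least 1.53-fold lower with F1177A, COMMD1 was lower (-0.83), and LTB (1.21), TAB1 (0.75, not called at 0.07 under median scaling over all probes) and IRF1 (0.73) were higher, though IRF1 turned to -0.02 under that scaling. The adaptors MALT1 (-0.56) and IRAK1 (-0.41) and the targets CD83 (-0.69) and GADD45B (-0.61) were lower. TNIP1 (0.49), CFLAR (0.50) and PLEK (0.55) were higher, and the first 2 turned to -0.26 each under median scaling over all probes while PLEK was not called (0.06). The median of all features was -0.620 there.

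**Figure D2:**
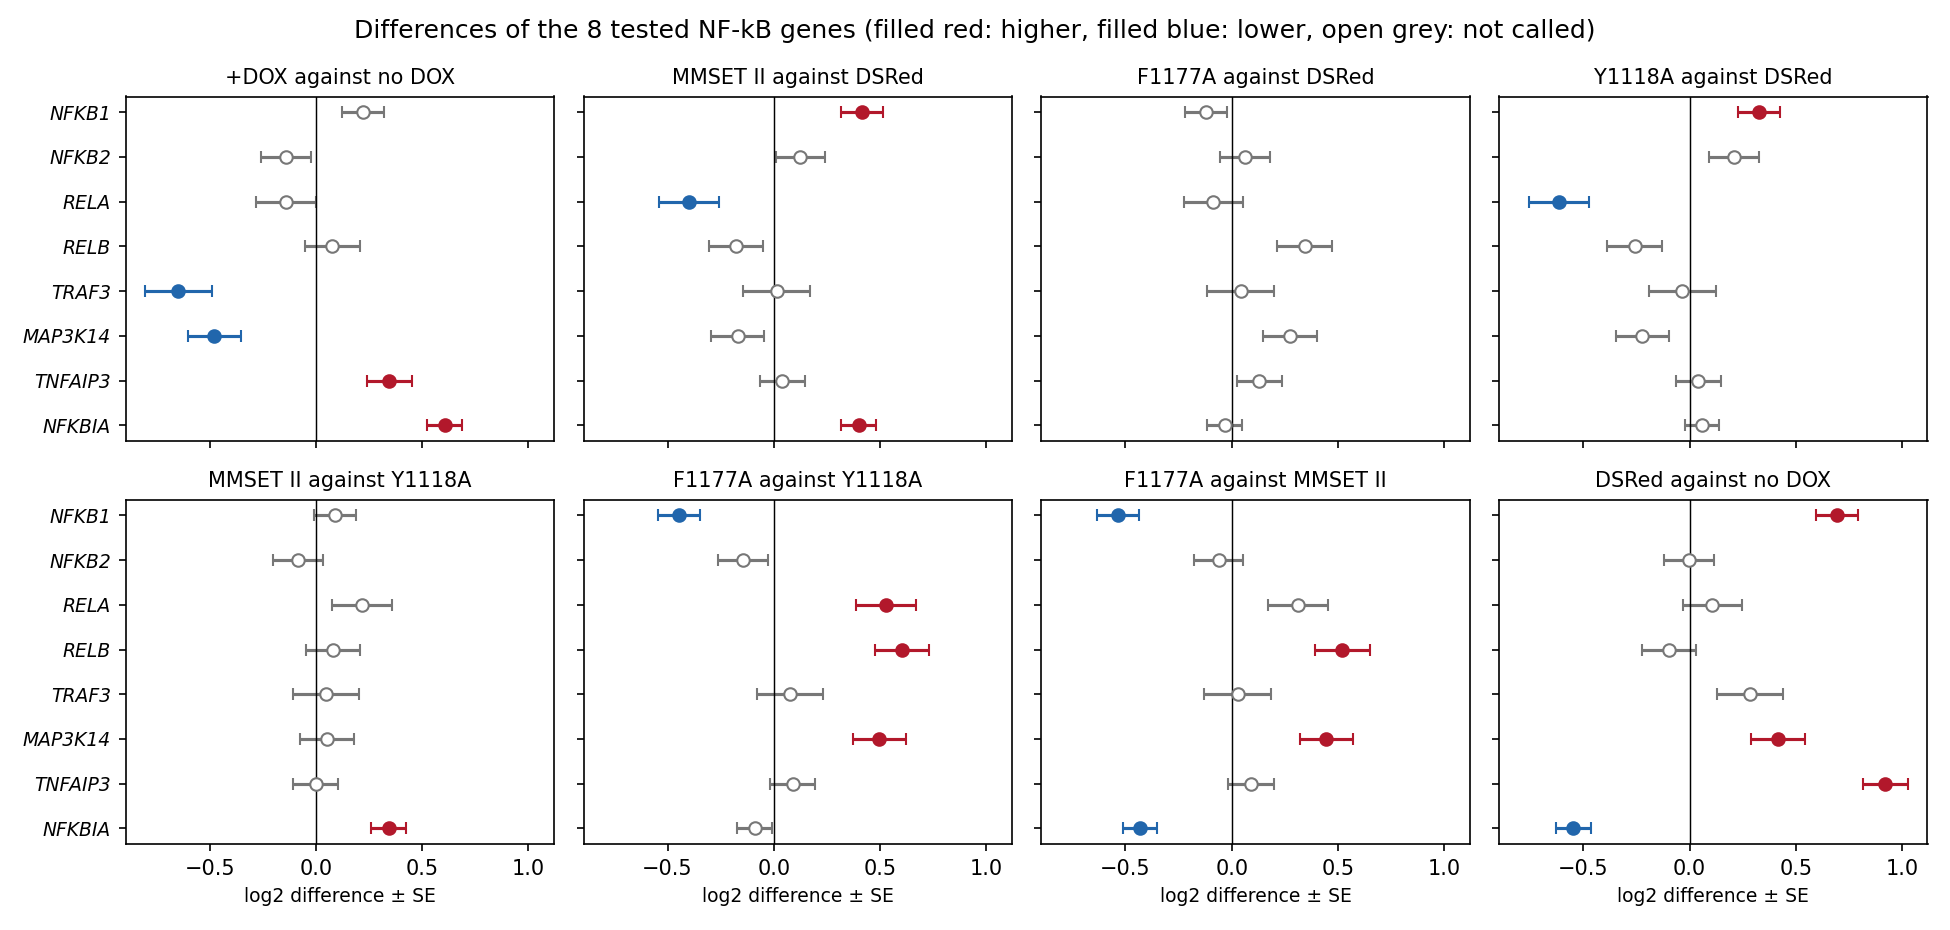
Log2 differences ± SE (horizontal axis) of the 8 NF-kB genes (vertical axis) in 8 comparisons of 3 against 3 arrays, first group minus second, with filled red for higher, filled blue for lower and open grey for no call at the adjusted threshold. NFKBIA was higher with +DOX and with MMSET II, and 0 members were called for F1177A against DSRed; MAP3K14 with +DOX, RELA, RELB and MAP3K14 for F1177A against Y1118A, RELB and MAP3K14 for F1177A against MMSET II, and NFKBIA for DSRed against no DOX changed direction under median scaling over all probes.

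The control groups of the 2 systems also differed in the pathway. In DSRed against no DOX, MMSET status, the hairpin, the vector and the history of the cells cannot be told apart. TNFAIP3 (0.92, limma adjusted p = 4.21e-07), NFKB1 (0.70, adjusted p = 6.03e-06) and MAP3K14 (0.41, adjusted p = 0.0082) were higher with DSRed and NFKBIA lower (-0.55, adjusted p = 9.13e-06), 4 of 8 members where 60.1% of all features were called (32.7% higher, 27.4% lower), and 4 did not overlap, against 55.2%. NFKBIA turned to 0.39 under median scaling over all probes, -0.353 relative to all features, TRAF3 (0.80), NFKB2 (0.92), RELA (0.95) and RELB (0.83) were called higher there, with 0.0576 to 0.207 relative to all features, and 90.4% of all calls were then higher, against 54.4%. MAP3K14 was not called without DSRed replicate 2 (0.29, adjusted p = 0.0667), under median scaling over detected probes (0.30, 0.0562) or in a fit of the 2 groups alone (0.41, 0.0815).

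The largest of these differences lay in ligands and target genes. LTB fell from 12.06, 12.93 and 12.93 to near background with DSRed, where 2 of 3 arrays detected it, a fitted difference of -7.16 (limma adjusted p = 2.47e-17) that the background limits. LTA read 9.07, 9.61 and 9.51 without doxycycline, was detected on 0 of the 12 repletion arrays and was at least 16.3-fold lower with DSRed. CD44, a surface receptor for hyaluronan, read 10.46, 10.31 and 10.21 and was at least 31-fold lower, again detected on no repletion array, and WNT10A was at least 11.4-fold lower. CCL5 fell by 2.32, BCL2L1 by 1.94 and TNFRSF13B by 1.78, whereas MALT1 was 1.23 higher and SOD2 1.00 higher. TNFRSF1B, the second TNF receptor, which 2 of 3 no DOX arrays detected, was 2.03 higher. TNFRSF17 was 0.56 higher, TRAF6 at least 1.46-fold, CD83 at least 1.23-fold and CD74, a partner of antigen-presenting proteins, 0.43 higher. TNFRSF1A, the first TNF receptor, was lower (-0.95), as were IL2RG (-1.21), TRADD (-0.73), RBCK1 (-0.83) and TRAF5 (-0.63), and NFKBIZ was at least 1.09-fold lower. Under median scaling over all probes TNFRSF1A (-0.16), IL2RG (-0.32) and NFKBIZ (-0.13) were not called and TRADD, RBCK1 and TRAF5 turned, to 0.18, 0.05 and 0.06. In the wider lists 37 of 57 genes (64.9%) were called, against 60.1% of all features (32.7% higher, 27.4% lower). Of 8 kinases 5 were higher and 0 lower, led by IKBKB, the IKK-beta kinase (0.79), and TBK1 (0.66). The IkB family held 1 higher (NFKBIE, 0.30) and 2 lower genes, with a median of -0.27 that turned to 0.52 under median scaling over all probes, -0.217 relative to all features. The NFKBIE call was lost without DSRed replicate 2 (0.29, adjusted p = 0.0503) or DSRed replicate 3 (0.26, 0.0628).

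**Figure D3:**
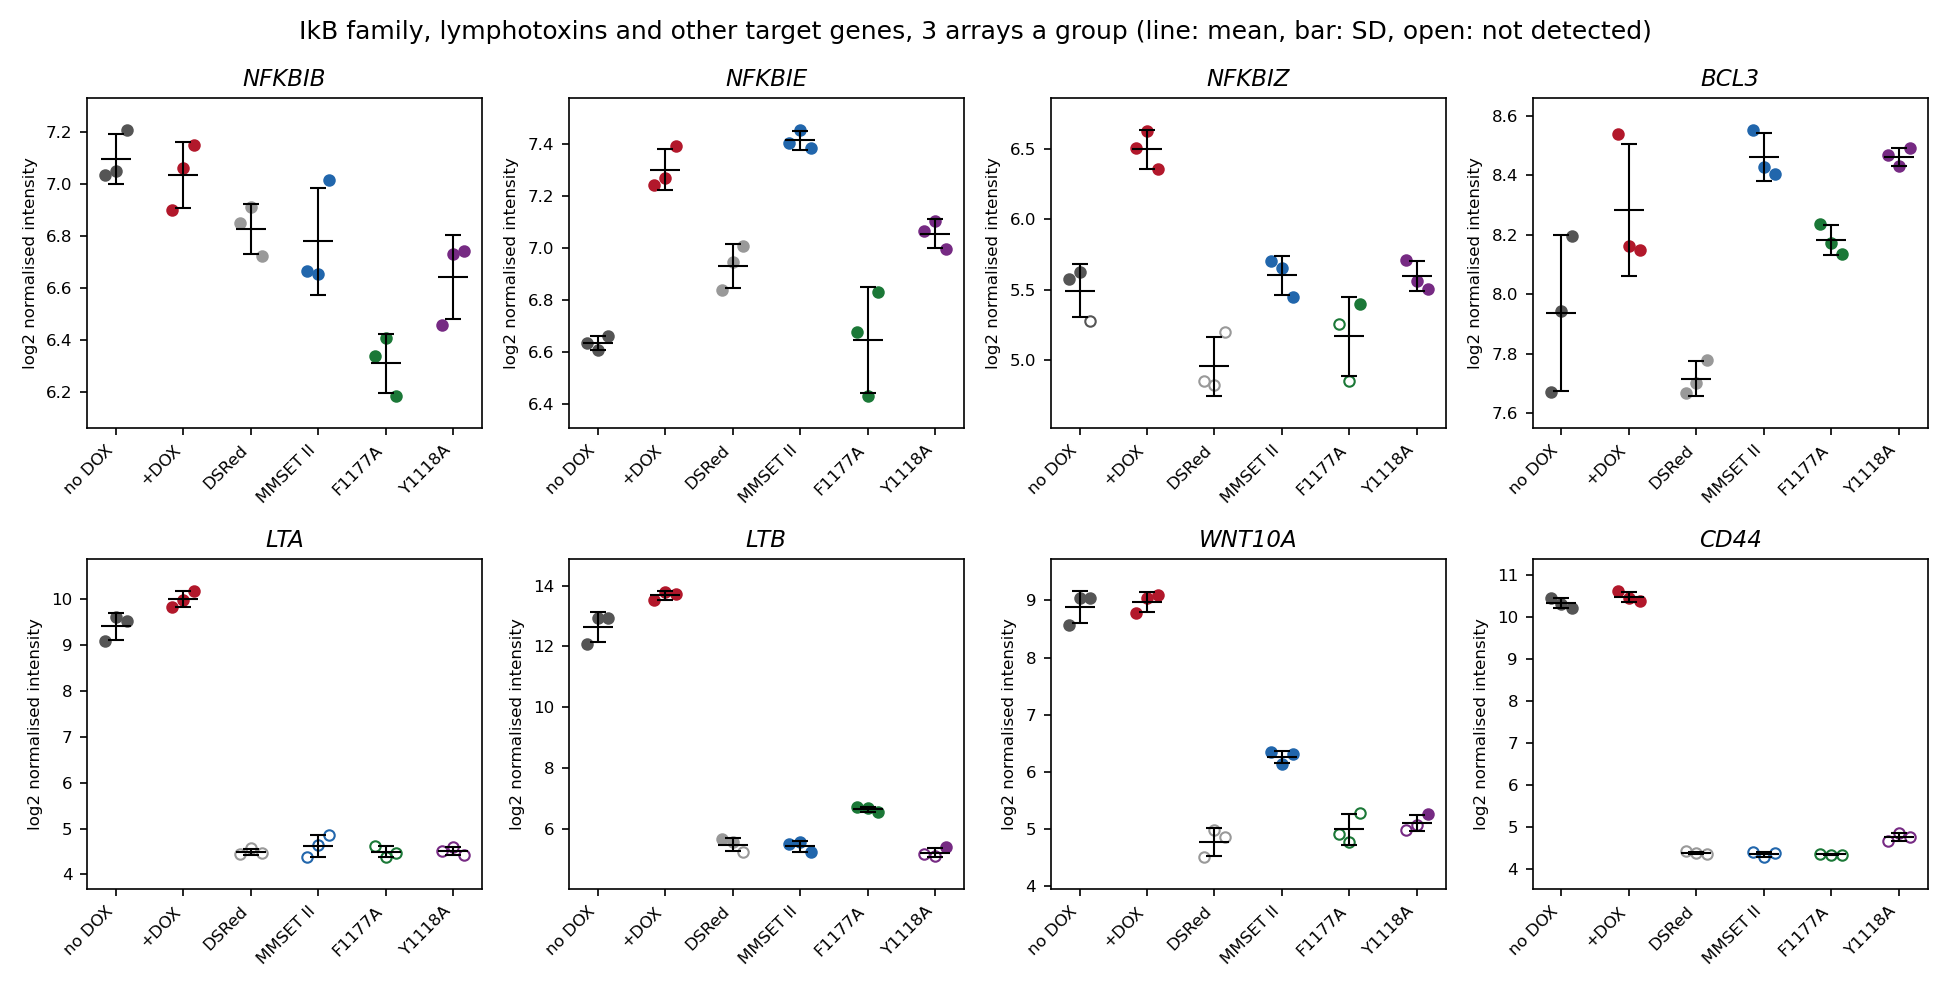
Log2 normalised intensity (vertical axis) of 4 IkB family genes, the lymphotoxins LTA and LTB, WNT10A and CD44 on each array of the 6 groups (horizontal axis), with points for arrays, black lines for means, bars for SD (n = 3) and open points for arrays without detection. LTA and CD44 were detected on all 6 hairpin arrays and on none of the 12 repletion arrays, and NFKBIE was higher with +DOX than no DOX and with MMSET II than DSRed.

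Whether the cells labelled as having more MMSET changed alike in both systems was asked by setting MMSET II minus DSRed against no DOX minus +DOX, comparisons that share no array. In the hairpin cells the drug and the hairpin cannot be told apart. NSD2 itself did not differ past the threshold between MMSET II and DSRed (-0.03, adjusted p = 0.887). The 2 changes differed for 6 of 8 members, where 45.2% of all features were called (23.8% higher, 21.5% lower). NFKBIA was higher with MMSET II in the repletion cells (0.40) and lower without doxycycline than with it in the hairpin cells (-0.61), a difference of 1.00 (SE 0.114, limma adjusted p = 1.42e-06). NFKB1 differed by 0.64 (adjusted p = 0.00123) and MAP3K14 by -0.65 (adjusted p = 0.00636), though MAP3K14 turned to 0.08 under median scaling over all probes, -0.638 relative to all features. NFKB2 and RELB had differences of -0.02 and -0.10 that were not called, but were called at 0.90 and 0.84 under that scaling (0.176 for NFKB2 relative to all features). Of the IkB family 4 of 5 genes differed, all with a positive difference of the 2 changes, with NFKBIZ at 1.65, NFKBIE at 1.15 and BCL3 at 1.09. Elsewhere in the lists this difference was positive for MALT1 (1.58), GADD45B (1.24), COMMD1 (1.04), BIRC2 (0.89), TNFRSF13B (0.68), BCL2L1 (0.65) and CHUK (0.64). It compares changes and not levels. The mean of BCL2L1, for example, was 8.81 with MMSET II and 8.98 with DSRed, against 10.92 without doxycycline and 11.75 with it. The difference of the changes was negative for IRF1 (-1.21), TRADD (-1.14), PLEK (-1.07), RBCK1 (-1.03), TAB1 (-0.88), TNIP1 (-0.82), TAX1BP1 (-0.73) and CFLAR (-0.65). Under median scaling over all probes, where the median of all features was 0.721, the first 5 of these were not called and TNIP1, TAX1BP1 and CFLAR turned. LTA, LTB, MMP9 and WNT10A passed the test too, with 0 to 2 DSRed arrays detecting each. Of all calls 95.9% were higher under median scaling over all probes, against 52.5%.

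**Figure D4:**
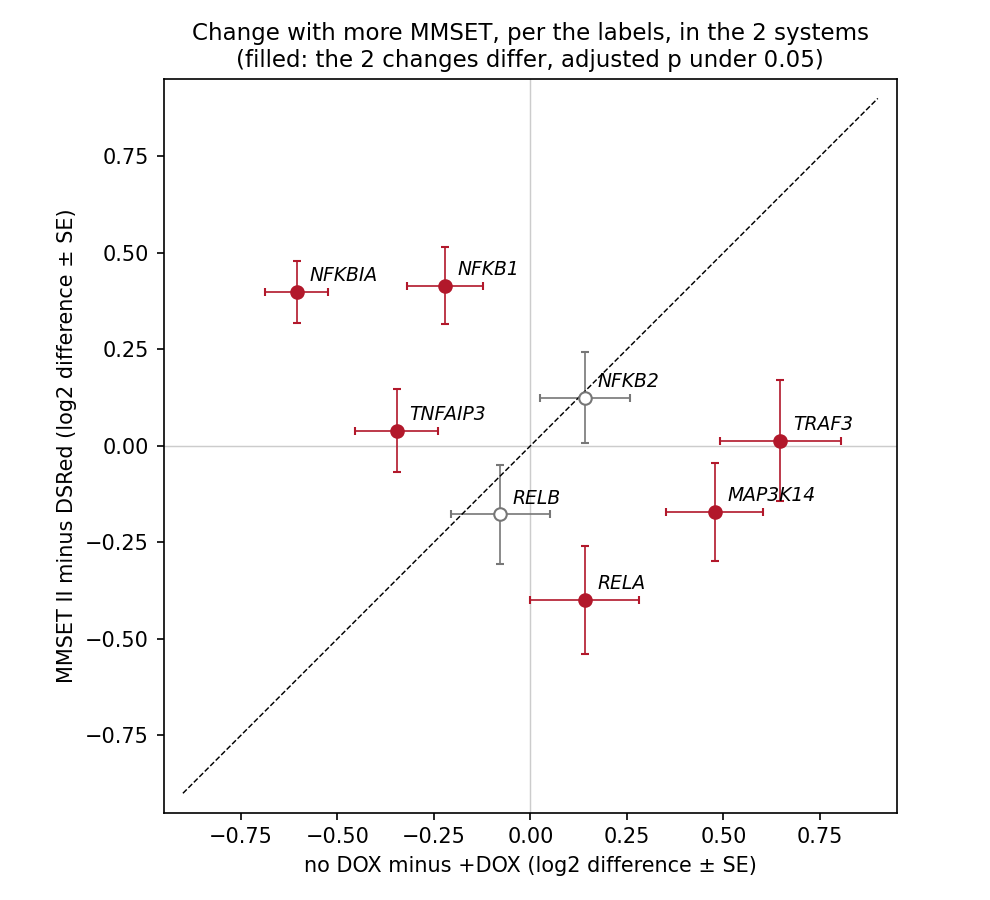
For each of the 8 NF-kB genes, the log2 difference ± SE of no DOX minus +DOX (horizontal axis) against that of MMSET II minus DSRed (vertical axis), with a dashed line of equal change and filled points where the 2 changes differ at the adjusted threshold. NFKBIA lies farthest from the line, at -0.61 and 0.40, and the differences of TRAF3, RELA and MAP3K14 turned in direction under median scaling over all probes.

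The genes whose levels ran most alike were sought for the 3 members with the widest range of group means, by Pearson's r over the 18 arrays and all 8947 named genes. For NFKBIA (range 1.19) they were CCL3L1 (r = 0.976), a chemokine gene with near-identical copies whose signal is uncertain for that reason, HNRNPU (0.972) and H3-3B (0.972). For MAP3K14 (range 1.17) they were HMG20B (0.976), CXXC1 (0.966) and VARS2 (0.961), and for NFKB1 (range 1.11) they were CEBPZ (0.981), ADO (0.976) and DYNC2I1 (0.973). These values describe 6 groups whose arrays share a normalisation and a brightness, and each gene was picked as the closest among the 8947.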

How the data were processed

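RNA of 18 samples in 6 groups was read on Illumina arrays. The deposited table gives a probe intensity on a linear scale, called non-normalized per the file headers, and a detection p-value for each probe and array, also deposited by the authors. Since 31.1% of intensities are below 0, a background had been subtracted; how is not stated in the sources used here. The submitters' processing notes name GenomeStudio 1.5.4. The authors' series matrix, intensity values that share a median of 3, served as an alternative.

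The neqc method of limma 3.58.1 (R 4.3.3, offset 16) corrected background, quantile-normalised and took log2, which understates differences of dim genes. Probes with detection p under 0.01 on at least 3 arrays (13336) were kept. The brightest probe stood for each symbol, giving 10954 features. A limma model over 6 groups (12 residual degrees of freedom, intensity trend) gave two-sided tests, also checked on simulated data. Members and lists were chosen with earlier results of these data known. The text names all members and, for each list and comparison, of the called genes among the 3 largest rises or falls, those whose call held without each array in turn and some others, a narrowing made after values were seen; a gene detected on no array of either group was passed over, likewise. Same-numbered arrays deviated together between F1177A and MMSET II (correlations 0.275, 0.168 and 0.219) and, more weakly, between Y1118A and DSRed (0.106, 0.0370 and 0.125). Every other comparison held a negative correlation.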

Additional observations from a re-analysis of the deposited data

Results flagged for a closer look

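For 6 members the change between groups labelled with and without MMSET differed between the repletion (MMSET II minus DSRed, in which NSD2 itself was not called, at -0.03) and the knock-down (no DOX minus +DOX), by the limma test of the difference itself, in which 45.2% of all features were called. The log2 difference of the 2 changes was 1.00 for NFKBIA (adjusted p = 1.42e-06), 0.64 for NFKB1 (0.00123) and 0.39 for TNFAIP3 (0.0442). It was -0.65 for MAP3K14 (0.00636), -0.63 for TRAF3 (0.0256) and -0.54 for RELA (0.0331). The calls of NFKBIA, NFKB1 and MAP3K14 held when each array was left out in turn. Those of the other 3 members did not. TRAF3 was not called without no DOX replicate 2 (-0.59), +DOX replicate 1 (-0.61) or 2 (-0.55), DSRed replicate 1 (-0.47) or 2 (-0.62), or MMSET II replicate 1 (-0.56) or 2 (-0.60). RELA was not called without no DOX replicate 3 (-0.53), +DOX replicate 1 (-0.40) or 2 (-0.53), DSRed replicate 1 (-0.52) or 2 (-0.48), or MMSET II replicate 1 (-0.45). TNFAIP3 was not called without no DOX replicate 1 (0.29), +DOX replicate 1 (0.41), 2 (0.37) or 3 (0.38), DSRed replicate 2 (0.37) or 3 (0.33), or MMSET II replicate 2 (0.36) or 3 (0.37).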

How the results depend on the processing

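Median scaling over all probes had the widest effect. It called 1444 features for MMSET II against DSRed, 831 for Y1118A against DSRed, 560 for MMSET II against Y1118A, 6835 for F1177A against Y1118A and 6543 for F1177A against MMSET II (3594, 3038, 2025, 4020 and 4251 in the reported fit), and of the 8 members 0, 0 and 0 in the first 3 and 7 for DSRed against no DOX. Under it these differences turned: with +DOX MAP3K14 0.0165, TNIP1 0.37 and IRF1 0.11; F1177A against DSRed SOD2 -0.0352 and BCL3 -0.0500; F1177A against Y1118A RELA -0.19, RELB -0.19, MAP3K14 -0.19, TNIP1 -0.35, IRF1 -0.14, CFLAR -0.42 and TAB1 -0.31; F1177A against MMSET II RELB -0.25, MAP3K14 -0.21, TNIP1 -0.26, NKIRAS1 -0.24, CYLD -0.30, IRF1 -0.0218, CFLAR -0.26 and IL2RG -0.10; DSRed against no DOX NFKBIA 0.39, RBCK1 0.0460, TRADD 0.18, TRAF5 0.0615 and TAX1BP1 0.60; and, between the systems, TRAF3 0.0355, RELA 0.26, MAP3K14 0.0827, TNIP1 0.0591, TAX1BP1 0.23, CFLAR 0.28, CCL5 0.28 and IL2RG 0.13. These values are as fitted and include the shift of the median of all features. The check covered called members and, for each list and comparison, the called genes among the 3 largest rises or falls. None of these turned under any other alternative, and other differences were not checked in this way. Array weights called 6128 features for MMSET II against DSRed, 3535 for F1177A against DSRed, 6409 for Y1118A against DSRed, 4488 for MMSET II against Y1118A and 6346 for F1177A against Y1118A, with 5, 1 and 5 members in the first 3. Fitting only the 2 groups compared called 2828 features with +DOX, 4074 for MMSET II against Y1118A and 6123 for F1177A against Y1118A, and 1 member for Y1118A against DSRed and 3 between the systems. Without the detection filter 1 and 3 members were called in those 2 comparisons. Leaving out 1 array at a time, members called ranged from 0 to 1 for F1177A against DSRed (1 without DSRed replicate 1 or 2), from 1 to 4 for Y1118A against DSRed (4 without DSRed replicate 3) and from 3 to 5 between the systems (3 without +DOX replicate 1 or 2 or DSRed replicate 2), and features called from 1901 to 4272 for Y1118A against DSRed and from 1348 to 1526 for MMSET II against Y1118A. The replicate number as a block called 4 members for F1177A against MMSET II, as without it, and 4400 features with +DOX. It ended the calls of MALT1 for MMSET II against DSRed (0.37, adjusted p = 0.0604), PLEK for F1177A against DSRed (-0.40, 0.0503), and CYLD and IL2RG for F1177A against MMSET II (0.31, 0.0525, and 0.58, 0.0567), IL2RG between the systems (-0.77, 0.0635), and no other. RELA, 0.31 higher with F1177A than MMSET II and not called in the reported fit, was called with cyclic loess (0.34, adjusted p = 0.0477), array weights (0.29, 0.0438) and the 2 groups alone (0.31, 0.0464). Median scaling over detected probes was added after seeing the data. The slide as a block was not run, since the sources used here name no slides. The cause of these shifts was not tested. Dim probes such as TRAF3 limit what can be seen.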
